A study of Mus musculus with 2 samples.

Results

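Macrophages of the amputated mouse digit were 556 of the 9967 cells that passed the study's cell filter (over 200 but under 7500 genes found, and less than 15% of UMIs from mitochondria), 203 of 3252 in the BSA library and 353 of 6715 in the FGF8 library. A cell was taken as a macrophage when it held at least 1 UMI (1 counted RNA molecule) of 5 or more of the 8 genes C1qa, C1qb, C1qc, Pf4, Mrc1, Ms4a7, Adgre1 and Csf1r, and none of Pdgfra, a receptor gene of fibroblasts. The cells therefore made up 6.24% of the kept BSA cells (95% exact Clopper-Pearson interval 5.44 to 7.13) and 5.26% of the kept FGF8 cells (4.74 to 5.82), and these intervals overlapped. All intervals given here cover counting error only.

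The study asked how a growth factor bead alters a wound of the middle phalanx (P2) that does not regenerate without treatment. Hindlimb digits of ICR mice, an outbred strain, were cut through P2 on postnatal day 3, and on day 7 a bead soaked in FGF8 at 500 ng/µl or in 0.1% BSA, the carrier protein control, was put into the wound. Tissue beyond the P2 stump was collected 24 h later, on postnatal day 8, after the epithelium had been taken off, and was dissociated with Liberase for 4 h at 37 °C. Each library pooled 20 digits from 5 mice of both sexes, and the FGF8 pool is likely to include digits that would not have regenerated. Each condition is thus 1 library, so no difference between them has a replicate check and no p-value is given.

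Sex composition differed between the pools. By Xist and 4 Y-linked genes, 145 BSA macrophages were called female, 33 male and 25 were not called, whereas 67 FGF8 macrophages were called female, 202 male and 84 were not called. Female cells were thus 81.5% of the called BSA macrophages (75.0 to 86.9) and 24.9% of the called FGF8 macrophages (19.9 to 30.5). Treatment, the mice in each pool and their sex cannot be told apart in the pooled ratio. For many lists and genes the ratio among cells called female (female cells) and that among cells called male (male cells) are therefore given beside it, and the other ratios are pooled only. No doublet caller was run here. The study's methods give the cell filter above as the step against doublets and ambient captures, and the Pdgfra condition of the rule also left out cells that held this fibroblast RNA. The libraries shared 6 barcode strings, of which 1 was a macrophage in either library and 0 were macrophages in both.

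Macrophages are phagocytes that clear dying cells and debris from a wound and release factors that act on the cells around them. Some are seeded in the tissue during development and keep themselves by dividing, and others come from blood monocytes that enter through the chemokine receptor Ccr2 and lose monocyte genes as they mature. In digit amputation wounds they are known for their part in the clearing of bone and in blastema formation, and interferons, colony stimulating factors and local oxygen are among the signals known to set their gene expression.

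The BSA macrophages held 3076554 UMIs in all, with a median of 14656 per cell (quartiles 8041 and 20198), and the FGF8 macrophages held 4759293, with a median of 12246 (8880 and 16779). The other kept cells had medians of 15458 and 12251, so macrophages were about as deeply read as the rest of their own library. Values below are summed UMIs per 1e+06 UMIs of the macrophages of a library (CPM), with each captured RNA end counted once and not divided by gene length. A count of 3 corresponded to 0.975 CPM in BSA and 0.630 CPM in FGF8.

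The macrophage name was checked against genes that the rule did and did not use. The 8 genes of the rule were by construction far above the rest of the library. C1qa, a chain of the complement protein that tags debris, was at 2212 CPM in BSA and 2355 in FGF8 macrophages, against 7.54 and 30.3 CPM in all other kept cells. Pf4, a chemokine, was at 4452 and 4038 CPM against 23.7 and 81.5, and Csf1r, the receptor for the macrophage survival factor CSF1, was at 392 and 329 CPM against 12.9 and 13.2. Ms4a7 was found in 96.6% and 96.9% of macrophages and C1qa in 86.7% and 76.5%.

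**Figure D1:**
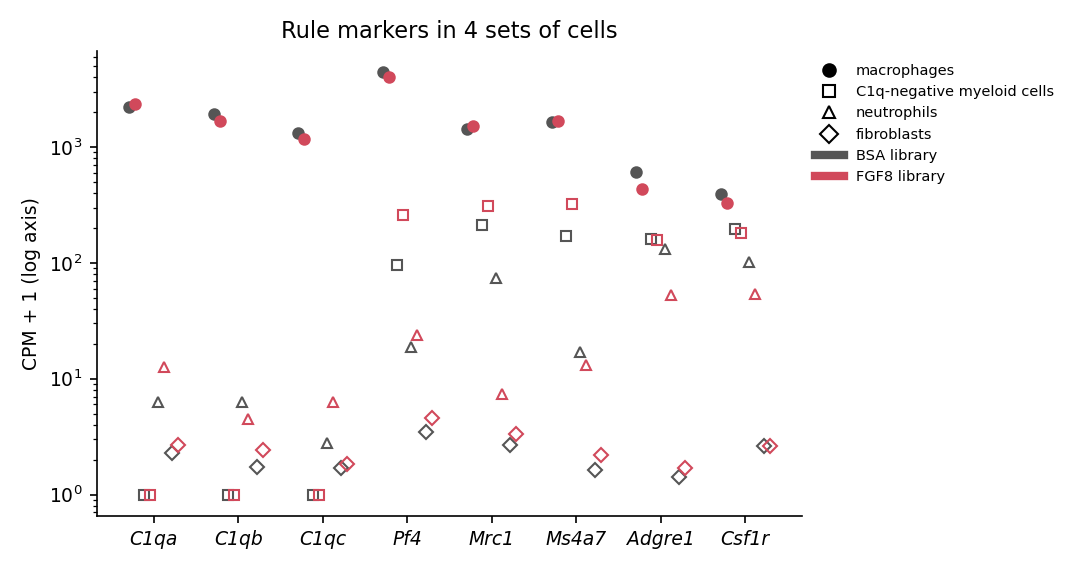
Level of the 8 genes of the rule (CPM + 1, log axis) in macrophages, C1q-negative myeloid cells, neutrophils and fibroblasts of the BSA and FGF8 libraries, 1 point per library and cell set. Macrophage points lie together for the 2 libraries, with C1qa at 2212 and 2355 CPM, and far above the other cell sets for the C1q genes, which the rule itself used.

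Of the 15 genes highest over the other cells in both libraries, 8 were outside the rule. Marco, a scavenger receptor, led them, with 179 CPM in BSA and 81.9 in FGF8 macrophages and log2 ratios of 8.04 and 7.73 over the rest, although it was found in only 14.8% and 11.6% of macrophages. Fcrls, a gene of tissue macrophages, stood 8.26 and 5.78 above the rest and was found in 50.7% and 53.3%. Slc13a3, a dicarboxylate carrier, stood 7.55 and 5.99 above it. Ccl8, Nxpe5, Gm13710, Pgap6 and Gpr34 were the others. These ratios describe cells chosen by their expression and are no test of it.

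Markers of most other cell types were at low levels. Neutrophil markers summed to 269 CPM in BSA and 101 CPM in FGF8 macrophages, with S100a9 the most abundant at 116 and 28.4 CPM, Elane at 0 in both and 6 of 16 markers reaching 20 UMIs, and 1 BSA cell held 176 of its 356 S100a9 UMIs. Lymphocyte markers summed to 103 and 89.3 CPM, with Cd79b the most abundant and Cd3e, Cd3g, Ncr1 and Nkg7 among those at 0. Cd79b was found in 30.5% and 24.9% of macrophages, at log2 4.96 and 5.26 above the other kept cells, so this sum does not mark lymphocyte RNA alone. Of 16 dendritic cell markers, which summed to 71.5 and 76.9 CPM with Batf3 the most abundant, 7 reached 20 UMIs and Clec9a was at 0. Haemoglobin RNA was the largest share of other cells' RNA, since the 9 erythroid markers found in the files summed to 12141 and 10754 CPM, led by Hbb-bs at 5154 and 5513 CPM. In 1 BSA macrophage these markers took 79.0% of all UMIs, and in 1 FGF8 macrophage 60.1%, while only 4 and 7 cells had over 1%. Endothelial, mast cell, smooth muscle and pericyte, and Schwann cell markers summed to 54.3, 17.2, 109 and 183 CPM in BSA and to 55.3, 16.2, 104 and 174 CPM in FGF8. Osteoclast markers were not at a low level, since they summed to 752 CPM in BSA and 790 CPM in FGF8 macrophages. In all other kept cells they summed to 680 and 476 CPM. Of these markers 9 of 16 were measured, and Ckb was the most abundant at 353 and 365 CPM. Acp5 was at 54.3 and 55.0 CPM, and Calcr, a defining receptor, was at 0 in both.

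Across the 11601 genes measured, those with 20 UMIs or more when macrophages of the libraries were added together, the median log2 ratio of FGF8 over BSA was 0.06, with -0.72 at the 5th and 1.29 at the 95th percentile. Of these genes 56.1% were higher and 43.9% lower in FGF8, 7.03% were more than 2-fold higher and 2.28% more than 2-fold lower. Within female cells 51.7% of the measured genes were higher and 48.3% lower, and within male cells 51.3% and 48.7%. Each list below is read against these shares. In cell sums, fewer expressing cells and less RNA per cell cannot be told apart, so the number of cells is given with a value where it matters.

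**Figure D2:**
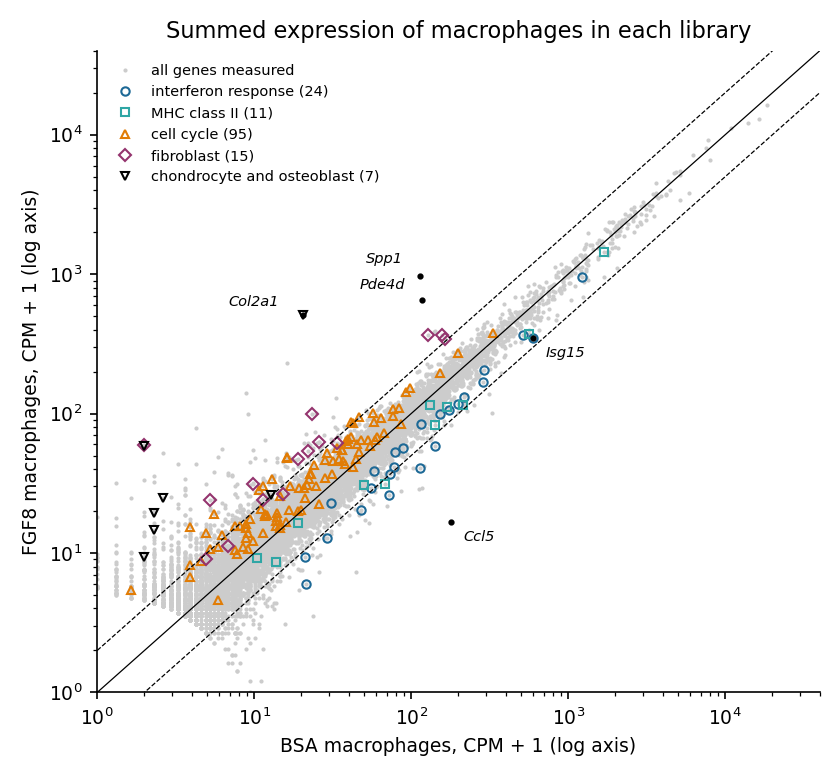
Level of each measured gene in BSA (horizontal) and FGF8 (vertical) macrophages, as CPM + 1 on log axes, with members of 5 lists in colour and dashed lines at 2-fold. Most genes lie between the lines, interferon response genes such as Isg15 (599 and 345 CPM) lie below the diagonal, and Spp1 (112 and 972 CPM), Pde4d and Col2a1 lie above the upper line.

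Interferon response genes were lower throughout in FGF8 macrophages. These genes are switched on by type I and type II interferons through the STAT proteins and encode inhibitors of virus growth and signalling proteins. All 24 listed genes were measured and 24 of 24 were lower in FGF8, 8 of them by more than 2-fold, with a median log2 ratio of -0.76. Their summed level was 4662 CPM in BSA and 3004 CPM in FGF8. In female cells 23 of 24 were lower with a median of -0.45, and in male cells 24 of 24 with a median of -1.30.

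Of this list 3 members are shown by the 250 bases before their start site, because they are among the genes lowest or most abundant in the group and hold the core of the interferon-stimulated response element as searched for here, 2 copies of GAAA with any 2 bases between them, on either strand. The sequences are those of RefSeq on GRCm38.p6, an earlier build than that of the counts, each given 5′ to 3′ along the gene, with the matches in capitals. Ifit1 (chr19:34640639-34640888, plus strand) holds matches that begin 104 and 85 bases before the start, Ifit3 (chr19:34583279-34583528, plus strand) at 156 and 122 bases, and Isg15 (chr4:156200819-156201068, minus strand) 3 that overlap, at 78, 72 and 66 bases.
Ifit1: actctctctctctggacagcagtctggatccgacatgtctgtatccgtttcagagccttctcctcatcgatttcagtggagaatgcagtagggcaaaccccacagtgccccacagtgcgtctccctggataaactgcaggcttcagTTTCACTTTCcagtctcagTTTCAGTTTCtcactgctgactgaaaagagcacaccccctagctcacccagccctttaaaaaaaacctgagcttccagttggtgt
Ifit3: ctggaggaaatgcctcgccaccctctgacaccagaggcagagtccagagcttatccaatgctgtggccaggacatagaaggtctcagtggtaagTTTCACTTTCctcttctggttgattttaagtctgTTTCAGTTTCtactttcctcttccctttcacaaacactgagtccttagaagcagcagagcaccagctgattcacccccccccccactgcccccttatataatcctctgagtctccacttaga
Isg15: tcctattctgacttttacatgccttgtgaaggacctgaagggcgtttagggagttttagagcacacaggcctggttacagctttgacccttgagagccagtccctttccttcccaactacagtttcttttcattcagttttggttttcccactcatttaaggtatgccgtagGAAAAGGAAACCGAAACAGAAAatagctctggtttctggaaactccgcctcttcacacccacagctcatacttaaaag
Of the promoters of all 27025 genes in this RefSeq set, 3.46% held a match in this window, and of 9063 measured macrophage genes 3.55%. A promoter was found for 17 of the 24 listed genes, and a share over the list is therefore void. Those with a match were Bst2, Ifi205, Ifi207, Ifit1, Ifit3, Isg15, Oas1a, Rsad2 and Stat2. A match describes the letters and is not a bound site.

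Isg15, a ubiquitin-like protein, was at 599 CPM in BSA and 345 CPM in FGF8 macrophages, a log2 ratio of -0.80 (exact conditional 95% interval -0.89 to -0.70), with -0.37 in female and -1.29 in male cells. Ifit1, which binds foreign RNA, had 218 UMIs in 44 BSA cells and 119 UMIs in 64 FGF8 cells (log2 -1.50, -1.84 to -1.17). Ifit3, a partner of Ifit1, was at 141 and 57.2 CPM (log2 -1.30, -1.52 to -1.08). All these genes were lower in the FGF8 library and in both sexes. Ifitm3, a membrane protein that blocks virus entry and the most abundant of the list, differed less, with 1226 and 955 CPM (log2 -0.36), and in female cells its ratio was 0.04. Ifit2, Usp18, Oasl1, Ifi205 and Cmpk2 of the list were also past 2-fold lower, and its lowest ratio, -2.02, was of a gene not named here. Ifit3b, which is not on the list, was past 2-fold lower as well. Ifit3b shares much of its sequence with Ifit3, and reads may be divided between such copies, as also within the guanylate-binding family.

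The 15 lowest ratios with the same sign in both sexes held Ifit1 and Ifit2 of that list, and the rest were genes outside it. Of the genes outside the list, Ifit3b is named above and Ccl5 and Slc40a1 are described below. A330040F15Rik, Gm46224, Ccrl2, Gpr141 and Rnf144b had log2 ratios from -1.73 to -1.30. The other 5 were picked out after their values were seen because they are known to answer to interferon, so their number is no result. Cxcl10, a chemokine for T cells, was at 119 CPM in BSA and 41.0 CPM in FGF8 (log2 -1.54), Gbp4, a guanylate-binding protein, at 50.1 and 16.2 CPM (log2 -1.63), and Gbp5 at 24.1 and 8.40 CPM (log2 -1.52). Ifi208 and Serpina3g were among the 15 as well, but 1 BSA cell held 40 of the 78 Serpina3g UMIs, and without the highest cell of each library its ratio was -0.90.

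Per cell, the interferon genes were uneven. The median cell gave them 0.149% of its UMIs in BSA and 0.158% in FGF8, so the middle of the pooled distribution was not lower in FGF8, while the upper quartile was 0.588% against 0.322%. The median was lower in FGF8 among male cells (0.332% and 0.150%) and cells with Ccr2 detected (0.465% and 0.268%). It was higher in FGF8 among female cells (0.130% and 0.174%) and cells with Ccr2 not detected (0.110% and 0.122%). Over 1% of UMIs came from these genes in 34 BSA macrophages (16.7%, 11.9 to 22.6) and 31 FGF8 macrophages (8.78%, 6.04 to 12.2), intervals that overlap slightly. Such cells are a range and not a type, and 15 BSA and 11 FGF8 cells lay between 0.8% and 1.2%. The lower sum in FGF8 thus accompanied fewer cells in the upper tail.

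The upper tail lay mostly among macrophages in which Ccr2, the receptor carried by cells recently come from blood, was detected at full depth. Of those, 24 of 73 BSA cells (32.9%) and 26 of 145 FGF8 cells (17.9%) were over 1%, against 10 of 130 (7.69%) and 5 of 208 (2.40%) where Ccr2 was not detected. Within female cells the shares were 15.2% in BSA and 8.96% in FGF8, and within male cells 15.2% and 8.42%. The share was lower in FGF8 in each of these subsets, but the exact 95% intervals overlapped in each of them. They were 22.3 to 44.9% and 12.1 to 25.2% where Ccr2 was detected, 3.75 to 13.7% and 0.785 to 5.52% where it was not, 9.76 to 22.1% and 3.36 to 18.5% in female cells, and 5.11 to 31.9% and 4.98 to 13.1% in male cells, the BSA value being 5 of 33 cells.

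**Figure D3:**
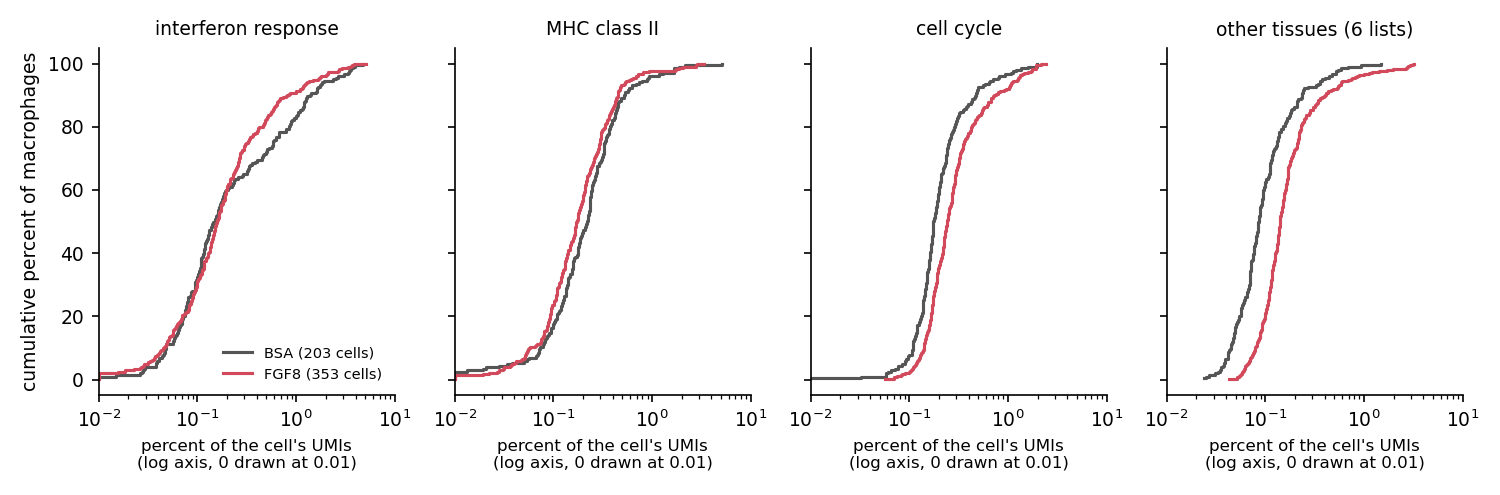
Cumulative percent of macrophages (vertical) against the percent of a cell's UMIs from a gene list (horizontal), 1 line per library, for interferon, MHC class II and cell cycle genes and for markers of other tissues. The interferon lines meet near their medians (0.149% and 0.158%) and part in the upper tail, where BSA cells lie further right, and the cell cycle and other-tissue lines lie further right for FGF8.

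In summed counts most interferon genes were also lower in FGF8 outside the macrophages. In C1q-negative myeloid cells, 113 BSA and 183 FGF8 cells with myeloid genes and no C1q of which 8 and 19 also met the macrophage rule, 24 of 24 interferon genes were lower in FGF8, where 47.5% of all genes tested were lower. In neutrophils (95 and 344 cells) 20 of the 20 that were measured were lower with a median of -1.87, where 42% of all genes were lower, and in fibroblasts (1485 and 2831 cells) 19 of 24, where 54.7% were. The share of cells over 1% was 39.8% (30.7 to 49.5) in BSA and 29.5% (23.0 to 36.7) in FGF8 for C1q-negative myeloid cells, intervals that overlap. For neutrophils it was 14.7% (8.30 to 23.5) and 2.33% (1.01 to 4.53), intervals that do not. Cells of 1 pooled library are not replicates of a condition, so neither overlap nor its lack is a comparison of treatments. Fibroblasts over 1% were 1.35% (0.825 to 2.07) and 0.848% (0.544 to 1.26), intervals that overlap. Per cell, fibroblasts were not lower in FGF8 at the median (0.125% in BSA and 0.150% in FGF8) or the upper quartile (0.205% and 0.234%). The lower interferon sum was not shown to be particular to macrophages.

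MHC class II genes, which present peptides to helper T cells, were lower in the pooled sums but not in both sexes. All 11 of 11 measured genes were lower in FGF8, with a median log2 ratio of -0.62 and summed levels of 3060 and 2320 CPM for all 15 listed. In female cells the median was -0.74 with 11 of 11 lower, and in male cells it was 0.21 with 4 of 11 lower. In C1q-negative myeloid cells 11 of 14 measured were lower, and in neutrophils and fibroblasts 2 of 8 and 4 of 12. Much of this RNA came from few cells. H2-Ab1, a class II chain, was at 168 CPM in BSA and 110 CPM in FGF8 and was found in 17 and 35 cells, of which the highest held 219 of 518 UMIs in BSA and 192 of 523 in FGF8. H2-Aa, its partner chain, was at 213 and 115 CPM in 21 and 36 cells. Cd74, the chaperone of these chains, was at 558 and 369 CPM (log2 -0.60), with 0.38 in male cells. Ctss, a protease that trims the chaperone and was found in nearly all macrophages, was at 1689 and 1436 CPM (log2 -0.23).

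Core macrophage genes were a little lower in FGF8. Of 25 measured, 3 were higher and 22 lower, with a median of -0.24. In female cells 14 of 25 were lower with a median of -0.088, and in male cells 21 of 25 with a median of -0.26. After thinning each cell to 5000 UMIs the median was -0.048. Lyz2, lysozyme, was at 5149 CPM in BSA and 3414 CPM in FGF8 (log2 -0.59). Fcer1g and Tyrobp, adaptors of activating receptors, were at 3732 and 3505 CPM (log2 -0.09) and at 2101 and 1909 CPM (log2 -0.14). Cybb, the catalytic subunit of the oxidase that makes superoxide, was the only one past 2-fold, with 226 CPM in BSA and 103 in FGF8 (log2 -1.13, -1.30 to -0.96), and it was lower in female (-1.08) and male cells (-0.93). Its highest cell held 17 of 695 UMIs in BSA and 12 of 491 in FGF8, so the value did not rest on a few cells.

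Genes of resident macrophages differed in both directions. Of 22 measured, 18 were lower and 4 higher in FGF8, 6 past 2-fold lower and 1 past 2-fold higher, with a median of -0.51 that was -0.53 in female and -0.40 in male cells. Selenop, a secreted selenium carrier, was at 1697 CPM in BSA and 949 CPM in FGF8 (log2 -0.84, with -0.83 in female and -1.01 in male cells). Ccl8, a chemokine, was at 1248 and 681 CPM (log2 -0.87) and came from 51 and 91 cells. Clec10a, a lectin, was at 114 and 52.7 CPM (log2 -1.11). Marco had a log2 ratio of -1.13, which was -0.99 without the highest cell of each library. Folr2, a folate receptor of resident macrophages, was at 204 and 205 CPM (log2 0.00, -0.14 to 0.15).

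Other resident genes were higher in FGF8 or rested on few cells. Lyve1, a hyaluronan receptor of macrophages along vessels, was at 10.7 CPM in BSA and 45.8 CPM in FGF8 (log2 2.09, 1.56 to 2.67), found in 9 and 38 cells, and its ratio was 2.52 in female and 1.98 in male cells. Cd163, a haemoglobin scavenger receptor, was at 38.7 and 60.3 CPM (log2 0.64). Cd209f was at 111 and 27.9 CPM, but 1 BSA cell held 216 of the 342 UMIs and the ratio in female cells was 0.65, opposite to the pooled -1.99.

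Iron handling genes were lower in 14 of 16 measured cases, with a median of -0.28. In female cells 14 of 16 were lower (median -0.50), and in male cells 10 of 16 (median -0.29). Fth1 and Ftl1, the ferritin chains, were at 16332 and 12854 CPM and at 13892 and 12226 CPM in BSA and FGF8. Hmox1, which breaks down haem, was at 1040 and 646 CPM (log2 -0.69), and Slc40a1, the iron exporter, was at 102 and 39.7 CPM (log2 -1.37, -1.63 to -1.10) in 41 and 42 cells. The lysosome list, with 23 of 29 lower and a median of -0.16, and the phagocytosis and lipid list, with 23 of 31 lower and a median of -0.13, lay nearer to the median of all genes. In female cells 24 of 29 (median -0.23) and 20 of 31 (median -0.28) were lower, and in male cells 20 of 29 (median -0.099) and 16 of 31 (median -0.085). Apoe, a lipid carrier and the most abundant of the phagocytosis and lipid list, was at 8045 CPM in BSA and 6569 in FGF8, and Ctsb, a lysosomal protease, was at 3302 and 2906 CPM.

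Cell cycle genes were higher nearly throughout in FGF8 macrophages. Of 95 measured genes 91 were higher, 19 of them past 2-fold, and the median log2 ratio was 0.59, with 0.59 in female and 0.65 in male cells. Genes of G2 and M phase were higher in 50 of 52 cases with a median of 0.69, and genes of S phase in 41 of 43 with a median of 0.44. Mki67, a nuclear protein of dividing cells, was at 40.3 CPM in BSA and 85.9 CPM in FGF8 (log2 1.09, 0.80 to 1.39) in 32 and 84 cells. Birc5, a regulator of chromosome segregation, was at 45.5 and 92.9 CPM (log2 1.03), and Rrm2, which makes deoxynucleotides, at 15.3 and 47.7 CPM (log2 1.64). Pcna, the sliding clamp of DNA polymerase, differed less, at 152 and 195 CPM (log2 0.36), and was found in 137 and 238 cells.

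The higher cell cycle sums came with more cells in the upper tail and with a shift of the whole distribution. Over 1% of UMIs were from these genes in 7 BSA macrophages (3.45%, 1.40 to 6.98) and 28 FGF8 macrophages (7.93%, 5.34 to 11.3), intervals that overlap, and the median cell was at 0.176% and 0.243%. Of the 28 FGF8 cells 24 were among the 208 in which Ccr2 was not detected (11.5%), whereas 2.76% of Ccr2-detected FGF8 cells were over 1%. In BSA the shares were close, with 5 of 130 cells where Ccr2 was not detected (3.85%) and 2 of 73 where it was (2.74%). Of fibroblasts 8.35% and 20.5% were over 1%, and C1q-negative myeloid cells gave 4.42% and 2.19%. The median neutrophil was at 0.266% and 0.309%. Over the list, 61 of 80 measured genes were higher in FGF8 neutrophils (median 0.56), where 58% of all genes were higher, and 95 of 97 in fibroblasts (median 0.89), where 45.3% were. In C1q-negative myeloid cells 52 of 79 were lower (median -0.20). The higher cell cycle level was thus not shown to be particular to macrophages. At a depth of 2000 UMIs per cell Mki67 was found in 3.08% of BSA and 8.48% of FGF8 macrophages (median depths before thinning 14656 and 12246) and in 2.13% and 9.15% of neutrophils, which no longer divide (median depths 3418 and 2631). Without thinning it was found in 15.8% and 23.8% of macrophages and in 7.37% and 14.5% of neutrophils. Both cell sets had the higher share in the FGF8 library, and the part of free RNA in these shares was not tested.

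Glycolysis and hypoxia genes were higher in 22 of 25 measured cases, 3 of them past 2-fold, with a median of 0.40 that was 0.23 in female and 0.61 in male cells. Pkm, a pyruvate kinase, was at 508 CPM in BSA and 680 CPM in FGF8 (log2 0.42), Ldha, lactate dehydrogenase, at 364 and 485 CPM (log2 0.41), and Gapdh at 1570 and 1768 CPM (log2 0.17). Vegfa, the vessel growth factor, was at 8.13 and 24.8 CPM (log2 1.61, 0.98 to 2.29) in 12 and 57 cells, and Ankrd37, a target of the hypoxia factor HIF, was at 8.45 and 24.6 CPM (log2 1.54). Both were higher in FGF8 in each sex. Over the list, 19 of 25 genes were higher in FGF8 neutrophils (median 0.39), 24 of 26 in fibroblasts (median 0.45), and 9 of 25 were lower in C1q-negative myeloid cells (median 0.077), so the higher level was not shown to be particular to macrophages. Vegfa was at 95.8 CPM in BSA neutrophils and 79.1 CPM in FGF8 neutrophils.

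**Figure D4:**
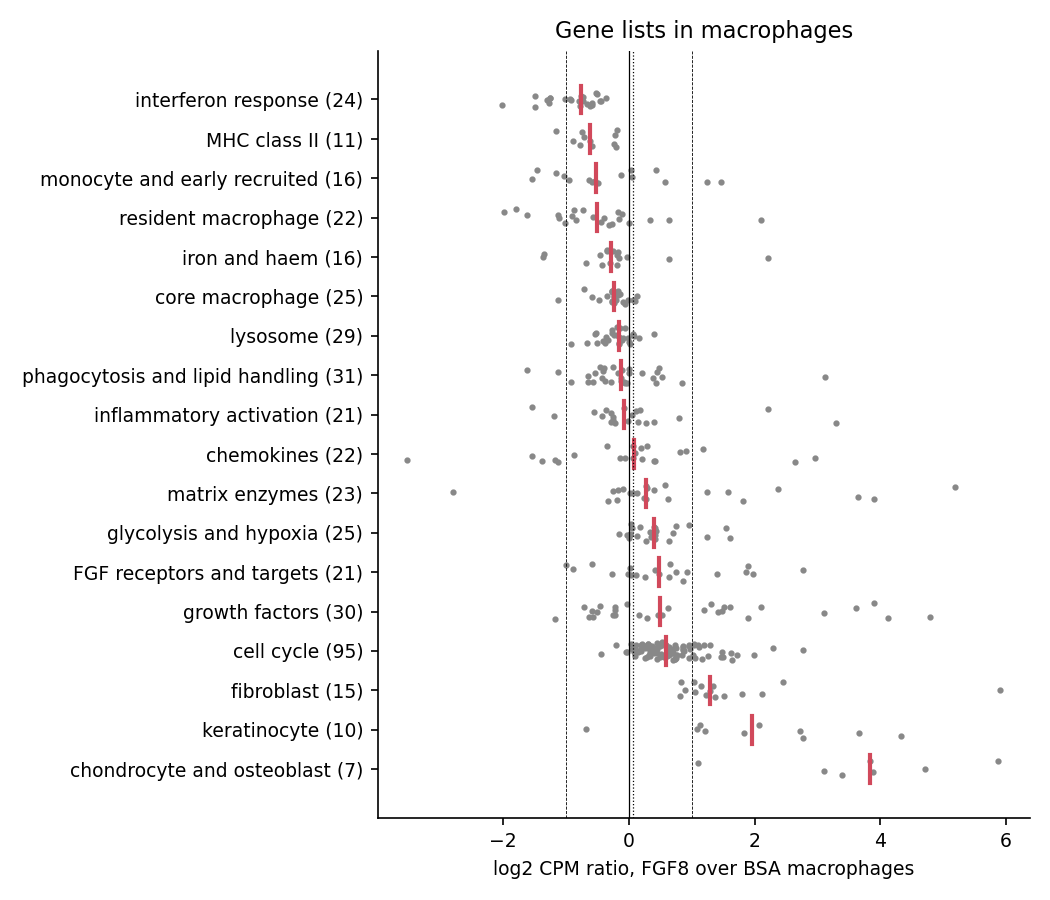
Log2 ratio of FGF8 over BSA macrophages for each measured member (grey points) of 18 gene lists, with the median in red, a dotted line at the median of all 11601 genes (0.06) and dashed lines at 2-fold. Every interferon point lies left of 0 and nearly all cell cycle points lie right of it, while fibroblast, cartilage and keratinocyte markers lie furthest right.

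FGF receptors and targets were examined because the bead carried an FGF. Receptor genes were sparse in macrophages. Fgfr2 was the most abundant, at 72.2 CPM in BSA and 86.1 CPM in FGF8, Fgfr1 was at 9.75 and 25.8 CPM (log2 1.41) in 22 and 60 cells, against 160 and 174 CPM in all other cells, and Fgfr3 and Fgfr4 did not reach 20 UMIs. At 2000 UMIs Fgfr2 was found in 10.3% of BSA and 12.6% of FGF8 macrophages and in 12.8% and 13.6% of neutrophils, and Fgfr1 in 1.54% and 3.51% of macrophages and in 4.26% and 7.46% of neutrophils. Without thinning Fgfr2 was found in 37.4% and 40.8% of macrophages and in 21.1% and 24.4% of the shallower neutrophils, and Fgfr1 in 22 of 203 and 60 of 353 macrophages and in 9 of 95 and 49 of 344 neutrophils. The part of free RNA in these receptor values was not tested, and no difference in receptor expression is read from them. Kl and Klb, the klotho co-receptors, were at 0. Of 21 measured genes of the list 16 were higher and 5 past 2-fold higher in FGF8, with a median of 0.47 that was 0.44 in female and 0.26 in male cells. In neutrophils 16 of 18 were higher (median 0.60), in fibroblasts 15 of 25 (median 0.085), and in C1q-negative myeloid cells 7 of 15 were lower (median 0.13), so the higher level was not shown to be particular to macrophages. Ccnd1, a cyclin of many growth signals, was at 159 and 265 CPM (log2 0.74). Some feedback genes and targets of FGF signalling were picked for their role after their values were seen. Dusp6, a phosphatase that switches off ERK, was at 70.5 and 71.2 CPM (log2 0.01, -0.24 to 0.27), and Etv5, a transcription factor, at 28.0 and 27.5 CPM (log2 -0.02, -0.43 to 0.39). Spry1, Spry2 and Spry4, feedback inhibitors, were at 18, 13 and 5 UMIs in BSA and 15, 38 and 9 in FGF8, with log2 ratios of -0.89 (-1.98 to 0.18) for Spry1, 0.92 (-0.02 to 1.95) for Spry2 and 0.22 (-1.51 to 2.14) for Spry4. Dusp6 and Etv5 were found in 100 and 59 BSA macrophages and in 162 and 100 FGF8 macrophages, so the counts of these genes were not at the floor. The genes picked for their role do not stand for the list, of which 16 of 21 were higher in FGF8 and 5 past 2-fold. Whether FGF targets responded in macrophages was not tested.

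Genes of secreted growth factors differed in both directions. Of 30 measured growth factor genes 18 were higher, 13 past 2-fold, with a pooled median of 0.49 but medians of -0.11 in female and 0.35 in male cells. Igf1, a growth factor for tissue repair, was lower in FGF8, at 248 and 166 CPM (log2 -0.58, with -0.63 in female and -0.83 in male cells). Tgfb1, at 210 and 180 CPM, and Grn, progranulin, at 1005 and 859 CPM, had log2 ratios of -0.22 and -0.23. Inhba, a subunit of activin, had 0 UMIs in BSA and 81 in 21 FGF8 cells, which is at least 4.13 higher on the log2 scale against a floor of 3 counts over the group, and was at 47.3 and 122 CPM in all other cells.

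Of genes for matrix enzymes and their inhibitors 17 of 23 were higher, 7 past 2-fold, with a median of 0.28 that was 0.10 in female and 0.53 in male cells. In all other kept cells the list summed to 3111 CPM in BSA and 4553 CPM in FGF8, and fibroblast markers within the macrophages were also higher in FGF8 (615 and 1563 CPM). The part of other cells' RNA in this list, which holds Mmp3, Mmp13 and Timp1, was not tested.

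Chemokines also differed in both directions. Of 22 measured, which hold Pf4 of the rule, 13 were higher and 9 lower, with a median of 0.08. In female cells 11 were higher and 11 lower (median -0.02), and in male cells 13 of 21 were lower (median -0.14). The monocyte attractants Ccl2, at 474 CPM in BSA and 453 in FGF8, and Ccl7, at 411 and 437, had log2 ratios of -0.07 and 0.09. Ccl3 and Ccl4, attractants of several leukocytes, were lower, at 90.7 and 40.1 CPM (log2 -1.18) and at 252 and 115 CPM (log2 -1.13). In BSA 5 cells held 141 of 279 Ccl3 UMIs, and 5 held 438 of 774 Ccl4 UMIs. Without the highest cell of each library the ratios were -0.96 and -0.95. Ccl5 had the lowest ratio of all named genes, at 179 and 15.5 CPM (log2 -3.53), but 1 BSA cell held 436 of its 551 UMIs, and without the highest cell of each library the ratio was -2.23. Ccl24 had 40 UMIs in BSA and 140 in FGF8, of which 89 were in 1 cell, and without the highest cell of each library its ratio was 0.04.

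Activation and recruitment lists held members of both directions. Inflammatory genes were higher in 9 and lower in 12 of 21, with a median of -0.07, and alternative activation genes 8 and 8 of 16, with a median of 0.12. Inflammatory genes were higher in 11 of 21 cases in female cells (median 0.01) and lower in 16 of 21 in male cells (median -0.41). Alternative activation genes were higher in 8 of 16 cases in female cells (median -0.004) and 9 of 16 in male cells (median 0.24). Il1b, the inflammatory cytokine, was at 93.9 CPM in BSA and 72.9 in FGF8 macrophages, far below the 5836 and 5253 CPM of neutrophils. Monocyte genes were higher in 6 and lower in 10 of 16 with a median of -0.52, but in female cells 9 of 16 were higher with a median of 0.26, and in male cells 11 of 16 were lower with a median of -0.42. Ccr2 was at 171 and 175 CPM (log2 0.04) and Plac8 at 341 and 219 CPM (log2 -0.64). Of the immediate early genes, which can mark dissociation, 14 were higher and 14 lower with a median of -0.08, and Fos was at 458 and 398 CPM. In female cells 20 of 28 immediate early genes were lower (median -0.36), and in male cells 16 of 27 were higher (median 0.13). Complement (median -0.11), chemokine receptors (-0.17) and colony stimulating factors (-0.25) were lower in 13 of 19, 8 of 13 and 5 of 7 cases. The complement and colony stimulating factor lists hold C1qa and Csf1r, which the rule used. In female cells complement was lower in 11 of 18 cases (-0.05), chemokine receptors were higher in 8 of 13 (0.11), and colony stimulating factors were higher in 3 and lower in 3 (-0.07). In male cells the 3 lists were lower in 15 of 19 (-0.21), 7 of 12 (-0.09) and 7 of 7 cases (-0.40).

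Many of the 15 highest ratios with the same sign in both sexes were of genes known from cartilage, synovium or matrix, a grouping made after their values were seen. The 15 were Prg4, lubricin of joint surfaces, Acan, Col9a1, Col11a1 and Hapln1, all of cartilage matrix, the matrix proteases Mmp3 and Mmp13, Krt17, a keratin, and F3, Bnc2, Mgp, Timp1, Mast4, Gpc6 and Chsy3. Prg4 had 3 UMIs in BSA macrophages and 278 in 142 FGF8 macrophages, and was at 189 and 1470 CPM in all other kept cells of the libraries. Acan had 3 and 272 UMIs, of which 227 of the FGF8 UMIs were in 5 cells. Mmp3 had 2 and 113 UMIs in 1 and 95 cells, with 24.6 and 511 CPM in all other cells. The high counts of Acan thus sat in a few cells, those of Mmp3 were spread thinly over many, and those of Prg4 were spread over many with 76 UMIs in 1 cell.

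The fibroblast, chondrocyte and osteoblast, and keratinocyte lists were higher in FGF8 macrophages. Other non-immune lists differed little in sum between BSA and FGF8. Endothelial markers were at 54.3 and 55.3 CPM, smooth muscle and pericyte markers at 109 and 104 CPM, and Schwann cell markers at 183 and 174 CPM. Fibroblast markers were higher in 15 of 15 measured cases, 12 past 2-fold, with a median of 1.29, summed levels of 615 and 1563 CPM, Col3a1 the most abundant at 156 and 364 CPM, and Pdgfra at 0 by the rule. In all other kept cells the same markers went the opposite way, from 38392 CPM in the BSA library to 23582 in the FGF8 library. Chondrocyte and osteoblast markers were higher in 7 of 7 measured of 12, with summed levels of 38.4 and 664 CPM and Col2a1 the most abundant at 19.5 and 510 CPM, of which the highest FGF8 cell held 724 of 2427 UMIs. Their median ratio was 3.83, but in female cells 4 of 7 were lower and 3 higher (median -0.48), and in male cells 6 of 6 were higher (median 3.52). Keratinocyte markers were higher in 9 of 10, with 91.0 and 255 CPM, Lgals7 the most abundant and a median of 1.95. In female cells 5 of the 8 with a direction were higher (median 0.63), and in male cells 9 of 9 (median 2.96), but over the members that reached 20 UMIs in female cells alone the median was -0.19. In all other kept cells both lists were lower in FGF8, from 1745 to 1480 CPM and from 1182 to 950 CPM. In neutrophils 9 of 9 chondrocyte and osteoblast markers (median 3.09) and 10 of 10 keratinocyte markers (median 1.69) were also higher in FGF8. Fibroblast markers went the other way there, with 6 of 16 higher and 10 lower (median -0.10), where 58% of all genes were higher. In C1q-negative myeloid cells 14 of 15 fibroblast markers were higher (median 1.34). The part of doublets, free RNA or engulfed cells in these values was not tested. Markers of 6 non-immune cell types together gave the median macrophage 0.0857% of its UMIs in BSA and 0.141% in FGF8, and over 0.5% in 7 BSA and 28 FGF8 cells. Without those cells the number of genes past 2-fold higher in FGF8 was 529 in place of 815, and Col2a1 had a ratio of -0.28.

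Spp1, osteopontin, a secreted matrix protein made by macrophages, bone and other cells, was at 112 CPM in BSA and 972 CPM in FGF8 macrophages (log2 3.12, 2.96 to 3.28), found in 55 and 269 cells. In FGF8 1 cell held 2340 of the 4624 UMIs, and without the highest cell of each library the levels were 89.8 and 484 CPM, 5.39-fold apart. At 2000 UMIs per cell, which left 195 BSA and 342 FGF8 macrophages, Spp1 was found in 9.74% (5.97 to 14.8) and 32.7% (27.8 to 38.0). In neutrophils, which are not known for Spp1, it was found in 9.57% (4.47 to 17.4) and 51.9% (46.0 to 57.7), and in C1q-negative myeloid cells in 8.85% and 31.9%. Without thinning macrophages had the higher share in both libraries, so the order of macrophages and neutrophils turned in FGF8 only. The shares were then 27.1% and 76.2% of macrophages (median depths 14656 and 12246 UMIs) and 15.8% and 66.9% of neutrophils (3418 and 2631 UMIs). Thinning takes more from the deeper macrophages, so neither set of shares gives a background level for them. No difference in expression is read from these shares, and the part of free RNA in them was not tested. In all other kept cells Spp1 was at 464 and 3128 CPM.

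Timp1, an inhibitor of matrix proteases, was found in 3.08% of BSA and 19.0% of FGF8 macrophages at 2000 UMIs and in 4.26% and 35.6% of neutrophils. Fn1, fibronectin, was found in 10.3% and 28.7% of macrophages, in 16.0% and 27.8% of neutrophils and in 68.8% and 67.9% of fibroblasts. Pde4d, a phosphodiesterase that breaks down cyclic AMP, was at 116 CPM in BSA and 653 CPM in FGF8 macrophages (log2 2.49), with 3.11 in female and 3.61 in male cells, and was found in 13.8% (9.33 to 19.5) and 54.7% (49.2 to 60.0) of macrophages, 14.9% and 35.3% of neutrophils and 43.0% and 64.1% of fibroblasts. The FGF8 share at this depth was above that in neutrophils, but at 5000 UMIs it was 71.8% (66.5 to 76.7) in macrophages and 73.6% (59.7 to 84.7) in the 53 neutrophils that deep. Its highest FGF8 cell held 61 of 3108 UMIs, but 1 BSA cell held 92 of 358 and 5 held 171, and without the highest cell of each library the ratio was 2.88. For Pde4d every cell set had a higher share in the FGF8 library.

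**Figure D5:**
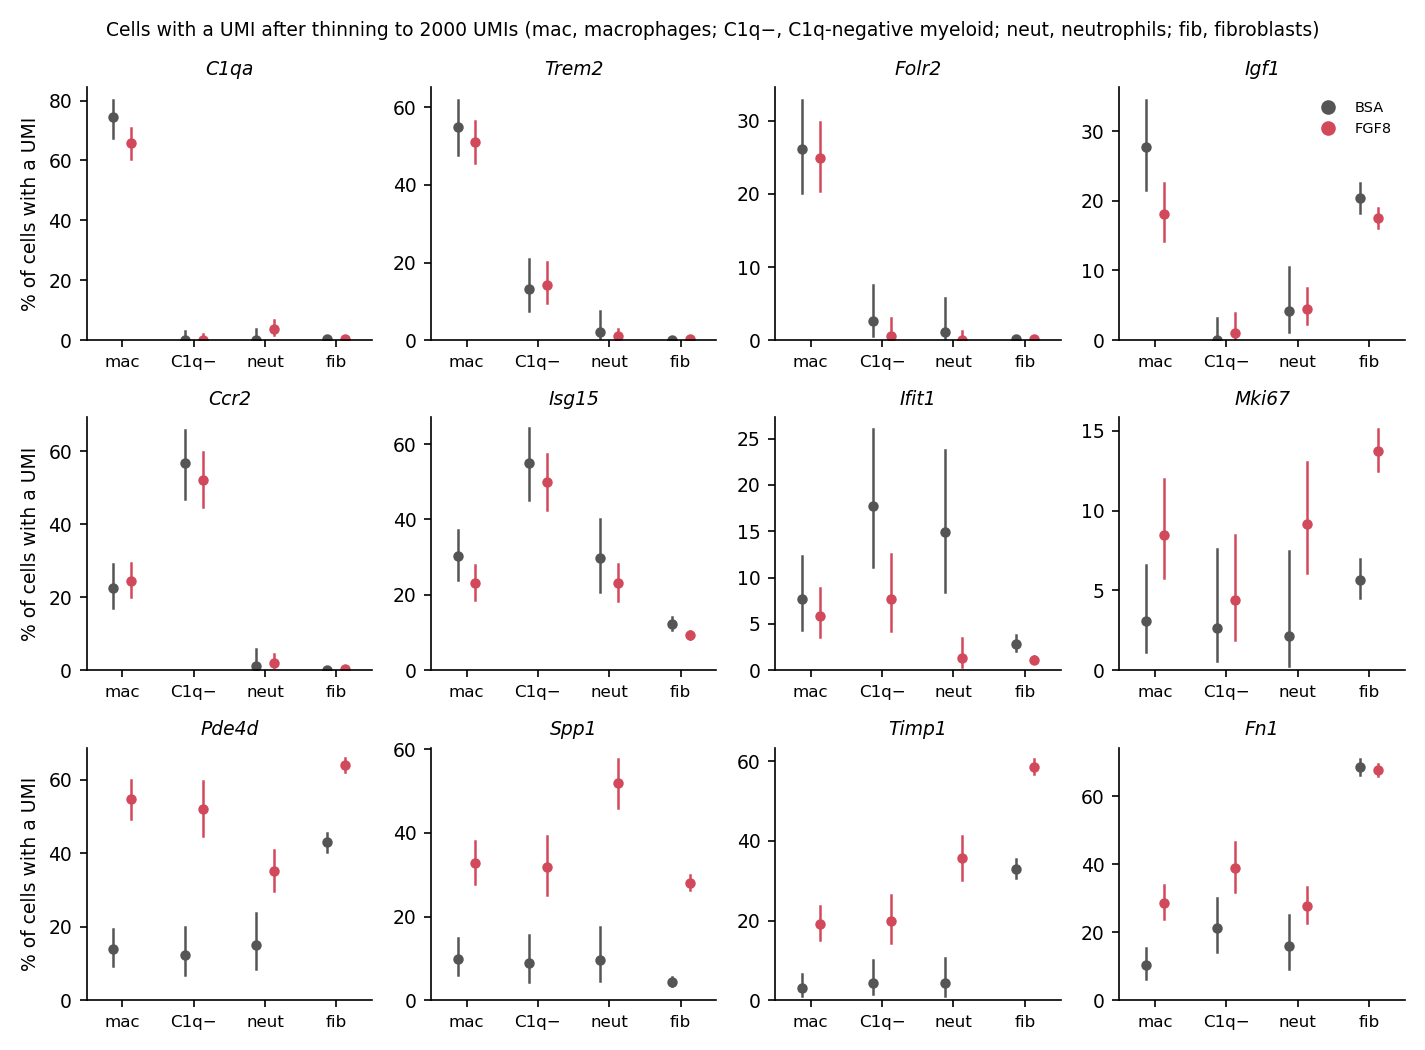
Percent of cells with at least 1 UMI of 12 genes after thinning each cell to 2000 UMIs, with exact 95% intervals, in macrophages, C1q-negative myeloid cells, neutrophils and fibroblasts of each library. The other cell sets were chosen to hold no C1q or few macrophage markers, so C1qa close to 0 in them follows from their rules. Spp1, which no rule used, is found in 32.7% of FGF8 macrophages and 51.9% of FGF8 neutrophils.

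The macrophages were not alike within a library. Cells were divided by whether a chosen gene was found after thinning to 5000 UMIs (173 BSA and 316 FGF8 cells), the genes that went with it were picked in BSA, and the same genes were then read in FGF8. Lyve1 was found in 5 BSA cells (2.89%) and 22 FGF8 cells (6.96%), which were deeper than the Lyve1-negative cells, with median depths of 22106 against 15892 UMIs in BSA and 18224 against 12698 in FGF8. All 10 genes picked in BSA were higher in the Lyve1-positive cells of FGF8 as well, 5 past 2-fold, among them Cd163 (log2 2.88 in BSA and 2.60 in FGF8) and Ednrb, an endothelin receptor (2.65 and 2.95). Of all measured genes 55.5% were higher in the Lyve1-positive cells of BSA and 53.8% in those of FGF8. Resident macrophage genes other than Lyve1 were higher in 18 of 20 cases in BSA and 21 of 21 in FGF8, but the BSA count rests on 5 cells.

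Ccr2 was found in 52 BSA cells (30.1%, 23.3 to 37.5) and 114 FGF8 cells (36.1%, 30.8 to 41.6). Interferon genes were higher in Ccr2-positive cells in 20 of 24 cases in BSA (median log2 0.56) and 24 of 24 in FGF8 (1.61), MHC class II genes in 11 of 11 in both, and resident genes in 1 and 4 of 22. Of all measured genes 44.1% were higher in Ccr2-positive cells of BSA and 45.8% in those of FGF8. Plac8 stood 2.39 and 3.32 above the Ccr2-negative cells. Of the 10 genes picked in BSA 4 were of haemoglobin, and these were within 2-fold in FGF8, as with Hbb-bs at 3.59 in BSA and -0.11 in FGF8.

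H2-Ab1 was found in 14 BSA cells (8.09%) and 18 FGF8 cells (5.70%), and these carried the other class II genes, with H2-Aa at log2 8.79 and 8.30 and Cd74 at 6.05 and 6.25 above the negative cells. Haemoglobin genes picked in BSA turned the other way in FGF8, with Hbb-bs at 2.83 and -5.04 and Hba-a1 at 2.75 and -3.30. Mki67 was found in 18 cells (10.4%) and 48 cells (15.2%), and Birc5 was 5.72 and 3.56 above the negative cells. Interferon genes were lower in Mki67-positive cells in 24 of 24 cases in FGF8 (median -1.48), but higher in 19 of 24 in BSA (median 0.40), where 51.9% and 46% of all measured genes were higher in Mki67-positive cells of FGF8 and BSA.

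Cells at the edge of the rule are given as a description. The 3 C1q genes are among the 8 that set the number of markers, so that their level follows this number is fixed by the rule. Cells with 5 markers, just inside, were 37 in BSA and 86 in FGF8, and cells with 4, just outside, were 37 and 88, while 113 and 179 cells held all 8. C1qa was at 264 and 150 CPM just inside, 48.9 and 56.1 CPM just outside, and 2756 and 3378 CPM in cells with all 8. Ccr2 was at 514 and 449 CPM just inside, 433 and 367 CPM just outside, and 102 and 71.7 CPM with all 8. Plac8 was at 1054 and 420 CPM just inside and at 160 and 60.7 CPM with all 8. Cells of 5 or more markers that were left out for a UMI of Pdgfra were 14 in BSA and 62 in FGF8, with Col1a1 at 6791 and 2649 CPM and C1qa at 638 and 1780 CPM.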

How the data were processed

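Cells of pooled P2 digits were run on the 10x 3′ v3.1 kit. The authors deposited raw UMI counts per gene and barcode, made with Cell Ranger 9.0.0 on GRCm39 (33696 genes), before their own cell filter, and that filter was applied here as the study states it. Macrophage members and the 33 gene lists were chosen with earlier results of these data known, so a list is no independent evidence. UMIs were summed over macrophages per library and scaled to CPM, and log2 ratios carry exact conditional 95% intervals. Genes needed 20 UMIs over both libraries, and in a subset of cells a gene at 0 in 1 group and under a floor of 3 counts in the other was given no direction. Named genes were list members past 2-fold with 100 UMIs, the 4 most abundant of each list, the 15 highest and lowest ratios with 1 sign in both sexes (without Xist, Tsix and Y-linked genes), the 15 highest over other cells, and genes going with 6 chosen genes; a few others (such as Dusp6, Etv5, Stat2, Il1b and the Spry genes) were named for their role after their values were seen. Shares were taken after thinning cells to 2000 or 5000 UMIs (seed 42), which left out 8 and 11 or 30 and 37 macrophages of BSA and FGF8. Python 3.11.15, numpy 2.4.6, scipy 1.17.1 and pandas 2.3.3 were used. The log2 ratios and their intervals were tested on simulated independent gene counts, which lack the clustering of UMIs in single cells seen here. Thinning was checked on the BSA macrophages, and the cell rule, sex calls and lists were not tested on simulated data. With 1 library per condition no test was made. Some genes are not reported here. Alternatives were other filters, marker numbers, depths, weights and subsets of cells.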

Additional observations from a re-analysis of the deposited data

Results flagged for a closer look

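MHC class II genes had a median log2 ratio of FGF8 over BSA of -0.74 in female-called macrophages and 0.21 in male-called macrophages, so the sexes gave opposite directions, and this difference was not tested. Only 33 BSA macrophages were called male, and class II RNA came from few cells in either library.

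Chondrocyte and osteoblast markers had a median log2 ratio of -0.48 in female-called macrophages and 3.52 in male-called macrophages, and this difference was not tested. The female members went both ways, with 4 of 7 lower and 3 higher, while 6 of 6 male members were higher. Most of the Col2a1 UMIs, 2356 of 2427, were in 5 FGF8 macrophages.

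Cells with 5 or more macrophage markers that also held Pdgfra, which the rule leaves out, were 0.923% of the kept FGF8 cells (62 cells, exact 95% interval 0.709 to 1.18) and 0.431% of the kept BSA cells (14 cells, 0.236 to 0.721). They were drawn out because they lie outside the comparisons of the report and were above the control. Their median depth was 32528 UMIs in BSA and 23646 UMIs in FGF8, against 14656 and 12246 UMIs for macrophages. The part of doublets in them was not tested.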

How the results depend on the processing

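Of 442 medians of 30 lists under an alternative, 400 stayed within the interval of the list's median, which is wide for short lists, and 46, in 18 lists, had the other sign. Of those 46, 3 were of lists whose interval left out 0. Among the others were, in female-called cells, monocyte genes (0.30), growth factors (-0.24), neutrophil markers (2.58) and dendritic cell markers (-0.40), and erythroid markers (-0.66) after thinning to 2000. Under each alternative the minimum of 20 UMIs was applied anew, so a median in one sex can differ from that in the report. No paired analysis was possible because each condition is 1 library. The share of macrophages, 6.24% in BSA, was 7.38% with 4 or more markers, 5.10% with 6 or more and 7.46% in female-called cells, and the share in FGF8, 5.26%, was 6.57%, 3.98% and 5.82%, with 6.56% under the stricter cell filter and 6.18% where Pdgfra was ignored. Genes past 2-fold higher, 815 in the report, were 298 and 439 after thinning to 2000 and 5000 UMIs, 322 in female-called cells, 529 without the cells over 0.5% for other tissues, and 1660 and 389 with minimums of 5 and 50 UMIs. Genes past 2-fold lower, 265 in the report, were 164 after thinning to 2000, 464 and 438 in female-called and male-called cells, and 801 and 105 with those minimums. The core macrophage median of -0.24 was -0.17 under the stricter filter, -0.27 with 4 markers, -0.080 and -0.048 after thinning to 2000 and 5000, -0.088 in female-called cells, -0.14 with cells weighted equally and -0.30 centred on all genes. The interferon median of -0.76 was -0.51 and -0.57 after thinning to 2000 and 5000, -0.45 and -1.30 in female-called and male-called cells, and -0.55 without cells of more than 1 Mki67 UMI. The MHC class II median of -0.62 was 0.21 in male-called cells, -0.26 with 4 or more markers and -0.34 with cells weighted equally. The glycolysis median of 0.40 was 0.44 with 4 markers, 0.57 in male-called cells and 0.43 with equal weights. It was 0.24 with 6 markers, 0.25 without Ccr2-positive cells and 0.23 in female-called cells. The cell cycle median of 0.59 was 0.43 after thinning to 2000 and 0.70 without Ccr2-positive cells. Reversals in female-called cells were keratinocyte markers (-0.19), S100a8 (2.58), S100a9 (3.52), Lgals7 (-0.19), Cd209f (0.65), Timp3 (-0.80), Col2a1 (-1.06), Krt5 (-2.06) and Runx2 (-0.85), and in male-called cells Thbs1 (-0.31) and H2-Eb1 (2.71). Without the other-tissue cells cartilage markers and Col2a1 (-0.28 each), Krt5 (-1.79) and Runx2 (-0.46) reversed. Under the stricter filter S100a8 (2.35) and S100a9 (2.64) reversed, with 4 markers Mgl2 (0.35), and without Ccr2-positive cells Krt5 (-0.044). The causes were not tested. Leaving out other-tissue cells, Ccr2-positive cells or Mki67-positive cells was chosen after seeing the data. Depth limits genes under about 20 UMIs, and with 33 male-called BSA macrophages that subset is the least precise.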
